A study of Mus musculus with 6 samples.

Results

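Branched-chain amino acid breakdown was followed in heart muscle through 10 genes named for the pathway: Bcat2, Bckdha, Bckdhb, Dbt, Bckdk, Ppm1k, Ivd, Mccc1, Mccc2 and Hibch. Each name matched 1 identifier among the 55401 genes listed, and all 10 met the filter of at least 1 FPKM in at least 2 libraries. The libraries were poly(A) RNA sequencing of myocardium from male wild-type mice given PBS (3 libraries) or STZ (3 libraries), all carrying a time label of 8 weeks. STZ (streptozotocin) is a toxin taken up by pancreatic beta cells, which make insulin, and here it served to establish diabetes. The labels give no strain, age or dose, do not say from when the 8 weeks run, and do not say that each library is a separate animal, so p-values measure the spread between libraries only.

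Leucine, isoleucine and valine are broken down in mitochondria. The aminotransferase Bcat2 removes the amino group, and the branched-chain ketoacid dehydrogenase complex (BCKDH) then commits the ketoacids to oxidation. BCKDH is built from E1 (Bckdha and Bckdhb), E2 (Dbt) and E3 (Dld), is inhibited when the kinase Bckdk phosphorylates E1 alpha, and is activated when the phosphatase Ppm1k removes that phosphate. Separate branches follow for each amino acid, among them Ivd and the carboxylase Mccc1 with Mccc2 for leucine, and Hibch for valine. Muscle, the heart included, is a main site of the first step.

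Values are FPKM, fragment numbers divided by transcript length and by the mapped fragments of the library, so levels can be compared between genes. FPKM does not state how many fragments stand behind a value, and the depth was not estimated here. The file of PBS replicate 3 lists 7711 genes (13.9%), 4 of the 10 among them. The fit over all genes therefore used PBS replicates 1 and 2 and the 3 STZ libraries, and PBS replicate 3 is given beside it where listed. Mitochondrially encoded genes took 47.1% and 47.3% of the summed FPKM in PBS and 42.0% to 45.5% in STZ. The heart muscle markers Myh6, Tnnt2, Tnni3, Actn2, Ryr2 and Mb were present in all libraries. Their summed FPKM was 10172 and 10888 in PBS and 7215 to 9567 in STZ, with 4 of the 6 lower and 2 higher in STZ by sign. In whole tissue, fewer cells of a type and less RNA per cell cannot be told apart. Of 5 neutrophil markers listed, 3 were tested (S100a8, S100a9 and Retnlg) and all 3 were called higher. Retnlg was at 0 and 0.46 FPKM in the fitted PBS libraries and 5.69 to 7.21 in STZ. A gene this low in PBS could be tested only if it was higher in STZ. Csf3r and Cxcr2 stayed under 1 FPKM and were not tested. Csf3r overlapped between the groups (0.32 and 0.6 against 0.38 to 0.81). Cxcr2 did not (0.03 and 0.16 against 0.34 to 0.72). Neutrophil markers summed to 3.64 and 8.22 FPKM in PBS and 41.8 to 57.4 in STZ, and red cell markers to 283 and 310 against 329 to 959. Endothelial markers (99.1 and 101 against 98.0 to 116) and fibroblast markers (82.1 and 92.9 against 92.0 to 96.2) differed less in sum. Of the 5 fibroblast markers 1 was called lower and 0 were called higher. However, 3 of them had every STZ library above both fitted PBS libraries, where 28.7% of all tested genes did. Pdgfra is among the 3, and PBS replicate 3 listed it at 3.64 FPKM, above STZ replicate 3 at 3.41 FPKM. Macrophage markers summed to 60.5 and 66.7 against 46.8 to 63.0. Of these 5 markers 0 were called. However, 3 (Adgre1, Csf1r and Mrc1) had every STZ library below both fitted PBS libraries, where 18.8% of all tested genes did. PBS replicate 3 listed Csf1r at 6.04 and Mrc1 at 3.19 FPKM, below STZ replicate 2 at 6.31 and 3.68 FPKM. Adipocyte markers summed to at most 4.16 FPKM in any library, with Lep listed at 0 in the 5 complete files. Atrial markers ranged from 0.49 FPKM in STZ replicate 3 to 439 in STZ replicate 1. The part of these in the results was not tested.

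All 10 genes were lower in every STZ library than in either PBS library. Over the 11556 genes tested, 18.8% had every STZ library below both PBS libraries. Ivd and Bckdhb fell in STZ hearts at a limma adjusted p of 0.05, 2 of 10 genes, where 2.17% of all tested genes were called lower. No member was called higher, where 3.64% of all tested genes were, and none had every STZ library above both PBS libraries, where 28.7% did. At an adjusted p of 0.1 the count was 7 of 10, against 5.37% of all tested genes. The median log2 fold change of the 10 was -0.48, and that of all tested genes was 0.06. The summed FPKM of the 10 was 302 and 310 in PBS, against 209, 211 and 218 in STZ replicates 1, 2 and 3. These sums differ by far more between the groups than within them, and a sum weights the abundant Bckdha most.

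**Figure D1:**
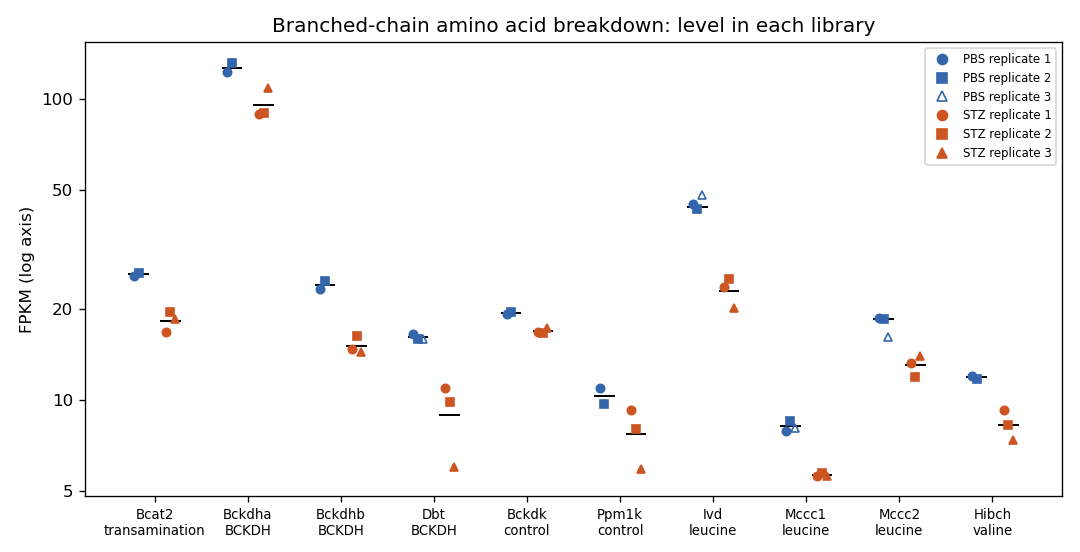
FPKM (log axis) of the 10 genes in each library, by step of the pathway. Blue marks PBS and orange STZ, circles, squares and triangles mark replicates 1, 2 and 3, open triangles are PBS replicate 3 where listed, and bars are the means of the fitted libraries. Each gene's orange points lie below its blue points, and the means lie closest together for Bckdk.

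In PBS hearts Bckdha was the most abundant of the 10, at 127 ± 6.4 FPKM (SD, n = 2), followed by Ivd (43.9), Bcat2 (26.2), Bckdhb (24.1), Bckdk (19.5), Mccc2 (18.6), Dbt (16.3), Hibch (11.9), Ppm1k (10.3) and Mccc1 (8.21). The values of neighbours in this order did not overlap between the 2 fitted PBS libraries, which give little measure of spread. With PBS replicate 3 included, Mccc2 and Dbt overlapped. In STZ hearts Bckdk stood above Bckdhb, and the neighbours that overlapped were Bcat2 with Bckdk, Dbt with Hibch, and Hibch with Ppm1k. Bckdha held 40.5% and 42.4% of the summed FPKM of the 10 in PBS, and 42.4%, 42.4% and 49.7% in STZ replicates 1, 2 and 3.

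RefSeq promoter windows (build GRCm38.p6, 250 bases before to 50 after the start of transcription) were listed for 9 of the 10 genes. Those of Ivd and Bckdhb, the genes that fell, and of Bckdk, the gene with the smallest difference, are printed to show how their start regions differ. Capitals mark matches on either strand to the CCAAT box, named for its letters. They also mark the GC box, searched as GGGCGG, and the CACC box, searched as CCACCC. The E-box was searched as CACGTG. The half-site bound by many nuclear receptors was searched as AGGTCA. No matches overlap in these 3 windows.
Ivd, chr2:118861744-118862043, plus strand: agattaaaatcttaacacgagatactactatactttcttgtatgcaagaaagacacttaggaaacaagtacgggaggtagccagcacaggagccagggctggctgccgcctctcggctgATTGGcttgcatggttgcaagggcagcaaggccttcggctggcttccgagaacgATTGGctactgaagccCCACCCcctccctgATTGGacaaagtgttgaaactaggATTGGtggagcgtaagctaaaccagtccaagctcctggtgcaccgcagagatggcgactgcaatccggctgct
Bckdhb, chr9:83924887-83925186, plus strand: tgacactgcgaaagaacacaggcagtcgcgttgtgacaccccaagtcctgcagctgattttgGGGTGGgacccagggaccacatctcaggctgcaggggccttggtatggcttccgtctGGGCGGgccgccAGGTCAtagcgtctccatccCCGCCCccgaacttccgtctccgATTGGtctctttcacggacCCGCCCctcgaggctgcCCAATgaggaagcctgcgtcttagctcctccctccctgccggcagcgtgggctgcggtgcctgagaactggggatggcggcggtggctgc
Bckdk, chr7:127903823-127904122, plus strand: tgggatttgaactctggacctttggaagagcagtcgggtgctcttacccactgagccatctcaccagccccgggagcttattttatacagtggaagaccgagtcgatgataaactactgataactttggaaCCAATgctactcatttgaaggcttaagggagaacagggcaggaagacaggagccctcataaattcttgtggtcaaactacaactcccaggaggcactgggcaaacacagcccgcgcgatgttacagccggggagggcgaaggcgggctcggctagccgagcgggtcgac
The Ivd window held 4 CCAAT boxes and 1 CACC box, the Bckdhb window 2 CCAAT boxes, 3 GC boxes, 1 CACC box and 1 half-site, and the Bckdk window 1 CCAAT box. CCAAT was found in 6 of the 9 members' windows and in 37.4% of all 32851 windows of that length. The GC box was found in 4 of 9 and in 35.7% of all windows, the CACC box in 4 of 9 and 31.5%, the half-site in 2 of 9 and 16.3%, and the E-box in 1 of 9 and 7.15%. The windows of the 9 were 48.0% to 66.3% GC, with a median of 54.0% against 52.7% over all windows. A match is a description of letters and does not show binding.

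At the first step, Bcat2, which moves the amino group of all 3 amino acids to a ketoacid acceptor in mitochondria, was at 25.92 and 26.42 FPKM in the fitted PBS libraries, against 16.78, 19.58 and 18.66 FPKM in STZ replicates 1, 2 and 3. The gene (ENSMUSG00000030826) lies on chromosome 7, 45570153 to 45589711, in GRCm38. Every STZ library was below both PBS libraries, with a mean difference of -30.2%. The log2 fold change was -0.49 ± 0.12 (SE), and it did not pass (limma adjusted p = 0.0726). Centred on library medians or quantile normalized, it passed. Bcat1, the cytosolic aminotransferase, lay between 0.05 and 0.14 FPKM in the 5 complete files and was not tested.

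In the BCKDH complex the 3 catalytic genes differed in size of change and in how the STZ libraries spread. Bckdhb, the E1 beta subunit (ENSMUSG00000032263, chromosome 9, 83925145 to 84124240), had PBS values of 23.38 and 24.78 FPKM. It had 14.76, 16.27 and 14.44 FPKM in STZ replicates 1, 2 and 3, so the STZ values lay close together and well below PBS. It fell by 0.64 ± 0.12 (SE) on the log2(FPKM + 1) scale (limma adjusted p = 0.039), from 24.1 ± 0.99 to 15.2 ± 0.977 FPKM (SD). With any 1 of the 5 libraries left out it did not pass: the limma adjusted p was 0.247 without PBS replicate 1, 0.256 without PBS replicate 2, and 0.0781, 0.0571 and 0.0586 without STZ replicates 1, 2 and 3. Rescaled to TPM it did not pass either (limma adjusted p = 0.0794).

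Bckdha, the E1 alpha subunit that carries the regulatory phosphate (ENSMUSG00000060376, chromosome 7, 25629946 to 25658981), was at 122.44 and 131.49 FPKM in PBS and at 88.82, 89.54 and 108.34 FPKM in STZ replicates 1, 2 and 3. STZ replicates 1 and 2 were nearly equal and replicate 3 was closer to PBS. The log2 fold change was -0.41 ± 0.14 (SE) and did not pass (limma adjusted p = 0.125). Exons of B3gnt8 on the opposite strand cover 61.7% of the exon length of Bckdha, and the strand setting of the quantification is not given in the sources used here, so reads of both genes could be mixed. B3gnt8 itself was listed at 1.66 and 1.61 FPKM in PBS and 1.25, 1.18 and 1.5 FPKM in STZ. Opposite-strand exons also cover 15.9% of Bcat2 and 5.60% of Mccc1, and none cover the other 7 members.

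Dbt, the E2 core to which the other subunits bind (ENSMUSG00000000340, chromosome 3, 116513070 to 116549981), was listed in all 6 files. It had PBS values of 16.58, 15.93 and 15.95 FPKM (replicates 1, 2 and 3), against 11.00, 9.86 and 6.02 FPKM in STZ replicates 1, 2 and 3. The PBS libraries agreed closely and the STZ libraries spread widely, with replicate 3 lowest. The log2 fold change was -0.83 ± 0.24 (SE, limma adjusted p = 0.0928), the second largest in size of the 10 but not past the threshold. Without STZ replicate 3 it was -0.60 (limma adjusted p = 0.0616). With PBS replicate 3 added where its file lists a gene, Dbt passed (limma adjusted p = 0.0434). The exact permutation test of 3 against 3 libraries gave p = 0.1, the smallest it allows.

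STZ replicate 3 held the highest STZ value of Bckdha, Bckdk and Mccc2 and the lowest of Dbt, Bckdhb, Ppm1k, Ivd and Hibch. In that library tested genes with the longest transcripts (at least 4702 bases) lay 0.15 lower on the log2 scale, relative to those with the shortest (at most 2124 bases), than in PBS. The same difference was within 0.05 in the other 4 fitted libraries. Of the 10 members Ppm1k (5560 bases) and Mccc1 (6751 bases) are among the longest. With a trend on length and GC content removed from each library, a setting added after the data were seen, the log2 fold change was -0.81 for Dbt and -0.36 for Ppm1k, and without that step -0.83 and -0.39. The part of transcript length in these values was not tested further.

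The E3 subunit Dld is shared with the pyruvate and oxoglutarate dehydrogenase complexes. It had PBS values of 106.3, 103.67 and 104.39 FPKM (replicates 1, 2 and 3), against 98.04, 92.98 and 66.74 FPKM in the STZ replicates. It too was lowest in STZ replicate 3, and its log2 fold change of -0.31 ± 0.19 (SE) did not pass (limma adjusted p = 0.344).

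Neither regulator of the complex passed, and Bckdk had the smallest log2 fold change in size of the 10. The kinase Bckdk (ENSMUSG00000030802, chromosome 7, 127904082 to 127910221) had 19.37 and 19.66 FPKM in PBS and 16.83, 16.74 and 17.30 FPKM in STZ replicates 1, 2 and 3. Both groups were tight and did not overlap, yet the difference was small, a log2 fold change of -0.19 (95% interval -0.46 to 0.08, limma adjusted p = 0.318). Of all tested genes, 23.5% had a fold change as low or lower. The phosphatase Ppm1k (ENSMUSG00000037826, chromosome 6, 57506502 to 57535468) had 10.98 and 9.71 FPKM in PBS and 9.27, 8.03 and 5.91 FPKM in STZ. STZ replicate 1 was just below PBS replicate 2, and replicate 3 stood lowest. The log2 fold change was -0.39 (95% interval -0.85 to 0.07, limma adjusted p = 0.242).

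The balance of kinase and phosphatase transcripts did not separate the groups. The ratio of Bckdk to Ppm1k was 1.76 and 2.02 in PBS and 1.82, 2.08 and 2.93 in STZ replicates 1, 2 and 3, a log2 difference of 0.24 that dropped to 0.04 without STZ replicate 3 (exact permutation p = 0.5, two-sided). The ratio of Bckdk to its substrate Bckdha was 0.158 and 0.150 in PBS and 0.189, 0.187 and 0.160 in STZ, which just did not overlap (log2 difference 0.21, exact permutation p = 0.2). The ratio of the E1 partners Bckdha and Bckdhb was 5.24 and 5.31 in PBS and 6.02, 5.5 and 7.5 in STZ (log2 difference 0.25, exact permutation p = 0.2). Those 3 ratios were the only ones tested, and the Benjamini-Hochberg adjusted p over the 3 was 0.5, 0.3 and 0.3 in that order (exact permutation tests). With 2 against 3 libraries the test cannot go below 0.1, so none could pass, and transcript ratios do not measure the phosphorylation of the complex.

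**Figure D2:**
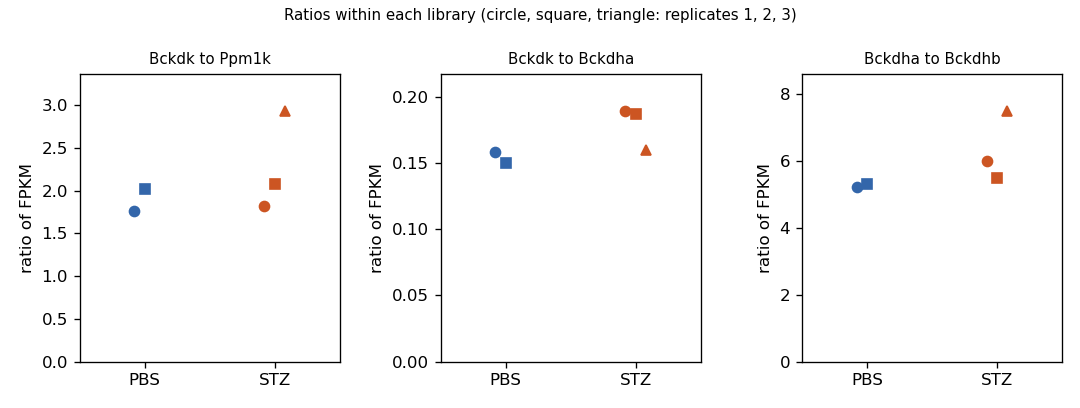
Ratios of FPKM within each fitted library, from 0 upward: Bckdk to Ppm1k, Bckdk to Bckdha, and Bckdha to Bckdhb, in PBS (blue) and STZ (orange), with circles, squares and triangles for replicates 1, 2 and 3. The groups overlap in the first panel, where STZ replicate 3 stands at 2.93, and lie close together in the other panels.

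In the leucine branch Ivd, the flavin-linked dehydrogenase that follows BCKDH, had the largest log2 fold change in size of the 10, although its interval overlapped that of Dbt, and Dbt was lower (-0.98 against -0.93) without STZ replicate 1. The gene (ENSMUSG00000027332, chromosome 2, 118861954 to 118882909) had PBS values of 44.80, 43.03 and 48.01 FPKM (replicates 1, 2 and 3), against 23.69, 25.21 and 20.25 FPKM in STZ replicates 1, 2 and 3. The lowest PBS value was far above the highest STZ value, and the mean difference of the fitted libraries was -47.6%. Ivd fell by 0.91 ± 0.14 (SE) on the log2(FPKM + 1) scale (limma adjusted p = 0.0244), and 1.77% of tested genes had a fold change as low. It passed in 15 of 20 alternative settings. It did not pass without PBS replicate 1 (limma adjusted p = 0.188), without PBS replicate 2 (0.156) or without STZ replicate 1 (0.0505), with log2 fold changes of -0.88, -0.94 and -0.93. The other settings where it did not pass were no filter on low values (limma adjusted p = 0.0706) and the replicate number as a block (0.0688).

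The next enzyme, methylcrotonoyl-CoA carboxylase, is made of a biotin-carrying alpha subunit (Mccc1) and a beta subunit (Mccc2). Mccc1 (ENSMUSG00000027709, chromosome 3, 35959312 to 36000678) had PBS values of 7.91, 8.51 and 8.10 FPKM (replicates 1, 2 and 3), against 5.61, 5.75 and 5.61 FPKM in STZ. Mccc2 (ENSMUSG00000021646, chromosome 13, 99948530 to 100015639) had 18.72, 18.56 and 16.16 FPKM in PBS and 13.25, 11.90 and 14.03 FPKM in STZ. In both genes all 3 PBS libraries were above all 3 STZ libraries, and the subunits shifted by nearly the same amount. The log2 fold change was -0.47 ± 0.11 for Mccc1 and -0.48 ± 0.12 for Mccc2 (SE, limma adjusted p = 0.0665 and 0.0751), so neither passed. With PBS replicate 3 added where its file lists a gene, Mccc1 passed (limma adjusted p = 0.0247) and Mccc2 did not (0.0555).

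In the valine branch Hibch, which frees 3-hydroxyisobutyrate from its coenzyme A ester (ENSMUSG00000041426, chromosome 1, 52844929 to 52920986), had 12.02 and 11.79 FPKM in PBS and 9.28, 8.27 and 7.35 FPKM in STZ replicates 1, 2 and 3. Every STZ library was below PBS, with replicate 3 lowest. The log2 fold change was -0.48 ± 0.13 (SE) and did not pass (limma adjusted p = 0.0891).

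None of the remaining enzymes of the pathway passed. Of 15 listed, 14 were tested, 0 were called in either direction and 3 had an unadjusted p under 0.05 (limma). By sign 12 were lower and 2 higher in STZ, with a median log2 fold change of -0.27. Every STZ library was below both PBS libraries for 9, where this held for 18.8% of all tested genes. The smallest p-values were in the propionyl-CoA segment, where valine and isoleucine carbon enters the citric acid cycle. Pcca, the biotin-carrying subunit of propionyl-CoA carboxylase, had 13.59 and 12.80 FPKM in PBS and 9.07, 8.97 and 7.04 FPKM in STZ (log2 fold change -0.61 ± 0.15 SE, limma adjusted p = 0.0668). Its partner Pccb had 33.32 and 37.10 FPKM in PBS and 28.83, 30.52 and 21.13 FPKM in STZ (-0.40, limma adjusted p = 0.227).

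Mut, the vitamin B12-dependent methylmalonyl-CoA mutase, had PBS values of 25.89, 25.22 and 21.94 FPKM (replicates 1, 2 and 3), against 18.52, 17.62 and 12.83 FPKM in STZ (-0.63 ± 0.18 SE, limma adjusted p = 0.0887). Echs1, an enoyl-CoA hydratase shared with fatty acid oxidation, had 35.16, 35.52 and 35.93 FPKM in PBS and 28.58, 28.79 and 23.72 FPKM in STZ (-0.38 ± 0.14 SE, limma adjusted p = 0.14). PBS and STZ did not overlap for any of these 4 genes. They were named for their small p-values in the same libraries, so this is no separate result. Hsd17b10 of the isoleucine branch had a higher sign (0.35, limma adjusted p = 0.338) and is named because of it.

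**Figure D3:**
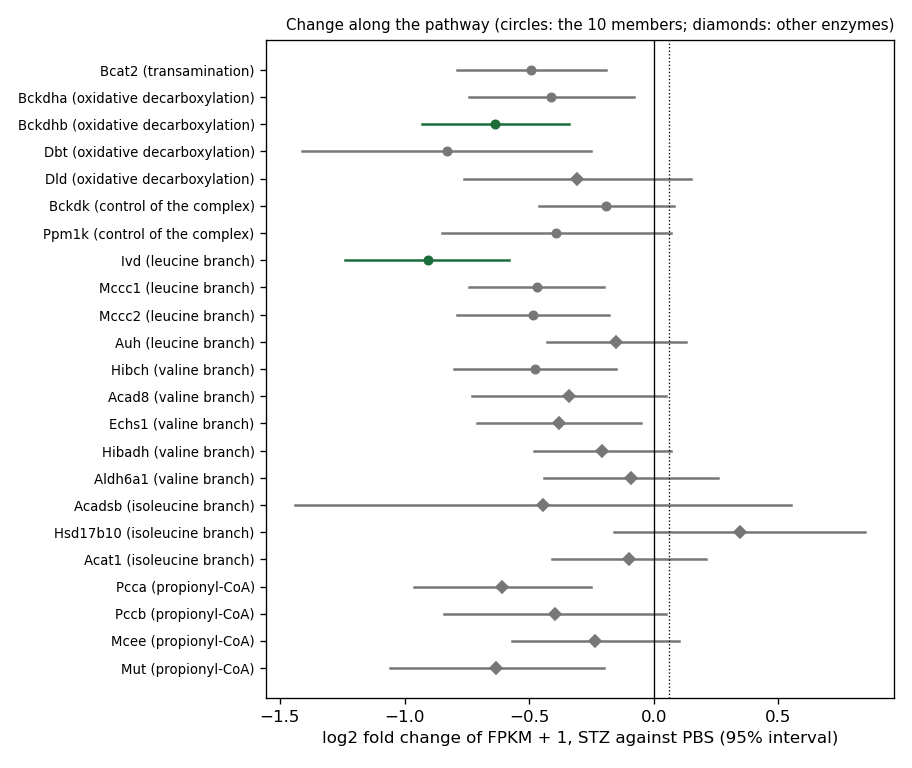
Log2 fold change of FPKM + 1, STZ against PBS, with its 95% interval from limma, for the 10 members (circles) and other enzymes tested (diamonds), by step. Green marks genes past an adjusted p of 0.05 and grey the others, and the dotted line is the median of all tested genes at 0.06. Bckdhb and Ivd are green, and of the points drawn Hsd17b10 alone lies above 0.

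Genes that supply cofactors to these enzymes were set beside them. Of 9 tested, Mmab and Mmachc fell and 0 rose, where 2.17% of all tested genes were called lower and 3.64% higher. The list's median log2 fold change was -0.28, and 7 were lower by sign. Mmab and Mmachc both handle vitamin B12, the cofactor of Mut: Mmachc processes the incoming vitamin and Mmab makes its adenosyl form. Mmachc had PBS values of 19.63, 19.77 and 20.57 FPKM (replicates 1, 2 and 3), against 11.42, 12.69 and 9.61 FPKM in STZ (log2 fold change -0.77 ± 0.15 SE, limma adjusted p = 0.0396). Mmab had 9.50, 10.35 and 9.34 FPKM in PBS and 6.13, 5.55 and 5.92 FPKM in STZ (-0.67 ± 0.12 SE, limma adjusted p = 0.0324). PBS and STZ were well apart in both.

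With 1 library left out the calls of Mmab and Mmachc were lost, apart from that of Mmachc without STZ replicate 2. The log2 fold changes then stayed between -0.61 and -0.73 for Mmab and between -0.67 and -0.85 for Mmachc. Without PBS replicate 1 and without PBS replicate 2 the limma adjusted p was 0.212 and 0.231 for Mmab and 0.246 and 0.221 for Mmachc. Without STZ replicates 1, 2 and 3 it was 0.0605, 0.0646 and 0.0566 for Mmab, and 0.0774, 0.0496 and 0.0521 for Mmachc.

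Of 6 listed amino acid carriers 4 were tested, Slc3a2 rose and 0 fell. Slc3a2, the heavy chain that pairs with light chains such as Slc7a5 to carry large neutral amino acids across the cell membrane, had PBS values of 8.12, 8.45 and 8.86 FPKM (replicates 1, 2 and 3), against 16.74, 17.23 and 16.56 FPKM in STZ. The STZ values were about 2.03 times the PBS mean and far outside its spread (log2 fold change 0.94 ± 0.11 SE, limma adjusted p = 0.0139). Without PBS replicate 1 the limma adjusted p was 0.141, and without PBS replicate 2 it was 0.124. Slc7a5, named because it is a partner of Slc3a2, was near the filter at 1.19 and 0.97 FPKM in PBS and 1.69, 2.0 and 1.4 FPKM in STZ (0.37, limma adjusted p = 0.185). Slc25a44, which carries branched-chain amino acids into mitochondria, had 4.65 and 4.03 FPKM in PBS and 5.05, 5.04 and 4.44 FPKM in STZ, where the groups overlapped (0.13, limma adjusted p = 0.543).

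**Figure D4:**
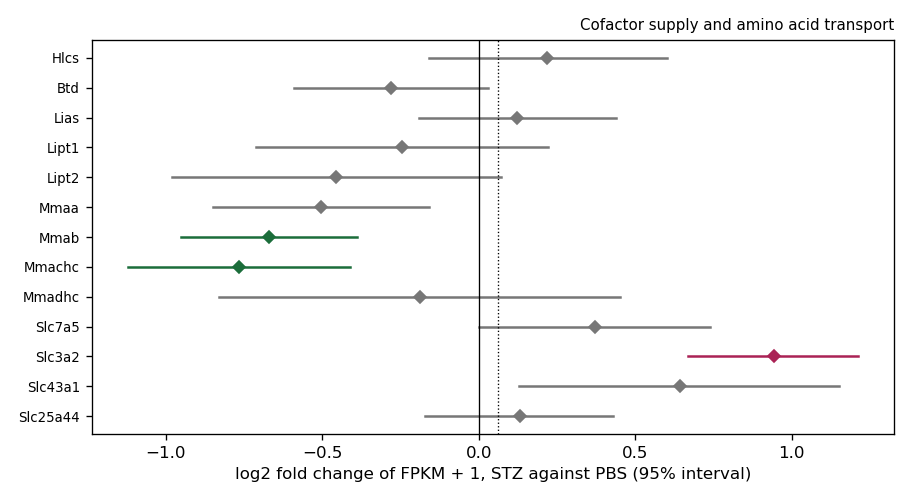
Log2 fold change of FPKM + 1, STZ against PBS, with its 95% interval from limma, for the 9 genes of cofactor supply and the 4 tested amino acid carriers. Green marks genes that fell, red a gene that rose and grey those that did not pass, and the dotted line is the median of all tested genes. Mmab lies at -0.67, Mmachc at -0.77 and Slc3a2 at 0.94. Slc43a1 and Hlcs reached the filter only through STZ libraries.

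Klf15, a transcription factor known to promote branched-chain amino acid breakdown in heart, had PBS values of 14.64, 14.33 and 20.49 FPKM (replicates 1, 2 and 3), against 25.57, 12.54 and 21.35 FPKM in STZ. The groups overlapped, and the log2 fold change of 0.37 ± 0.28 (SE) did not pass (limma adjusted p = 0.44). None of the 4 regulators listed was called, and 1, Ppargc1a, had an unadjusted p under 0.05 (limma adjusted p = 0.178). Ppargc1a had 12.22 and 10.32 FPKM in the fitted PBS libraries and 17.44, 17.38 and 12.64 FPKM in STZ. PBS replicate 3, left out of the fit, listed it at 21.38 FPKM, above every STZ value.

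The related complexes that share Dld were set beside BCKDH. Of 9 tested genes of the pyruvate dehydrogenase complex, its kinases and phosphatases, 0 fell and Pdk4 rose. Over all tested genes, 2.17% were called lower and 3.64% higher. Pdk4 is 1 of the kinases that inhibit that complex. It had PBS values of 93.99, 97.16 and 92.29 FPKM (replicates 1, 2 and 3), against 625.19, 702.58 and 295.17 FPKM in STZ (log2 fold change 2.39 ± 0.36 SE, limma adjusted p = 0.0245). It did not pass without PBS replicate 1 (limma adjusted p = 0.141), PBS replicate 2 (0.132), STZ replicate 1 (0.0572) or STZ replicate 2 (0.0501). Among the uncalled genes of that list, Dlat (-0.53), Pdhx (-0.54) and Pdhb (-0.37) are subunits of the complex named after their values were seen. Each had every STZ library below both PBS libraries, as did 18.8% of all tested genes. Each also had an unadjusted p under 0.05 (limma adjusted p = 0.125, 0.0988 and 0.115). These log2 fold changes lie within the range of the 10 members. Of the other pyruvate dehydrogenase kinases, Pdk2 was at 0.12 and Pdk1 at 0.28 (limma adjusted p = 0.528 and 0.438), and Pdk3 was not tested. Pdk2, at 124.75 and 131.64 FPKM in PBS, was more abundant there than Pdk4. Bckdk, the kinase of BCKDH, was at -0.19, and the differences between these kinases were not tested. Neither the E1 nor the E2 gene of the oxoglutarate dehydrogenase complex was called, with log2 fold changes of -0.51 and -0.41. Both genes had every STZ library below both PBS libraries, as did 18.8% of all tested genes.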

How the data were processed

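Poly(A) RNA of mouse myocardium was sequenced in 3 PBS and 3 STZ libraries, grouped by the treatment label. The authors deposited FPKM per gene, 1 file per library, per the file headers. Per the submitters' processing notes they used cutadapt 1.9, HISAT2 2.0.4, StringTie 1.3.4d and the build GRCm38, and neither strand setting nor annotation release is given in the sources used here. Per the labels' protocols dUTP marked the second strand. A large change in an abundant gene moves every other FPKM of its library.

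Symbols, positions and lengths came from GENCODE M21 of the same build (55141 of 55401 identifiers had a symbol). The 11556 genes reaching 1 FPKM in 2 or more fitted libraries were tested on log2(FPKM + 1), pseudocount 1, with limma 3.58.1 in R 4.3.3 (eBayes with trend, two-sided, Benjamini-Hochberg over all genes tested, threshold 0.05). This scale understates the change of low genes. Adjusted p-values of genes come from limma throughout, and the code was tested on artificial data. A library listing under 50% of genes was left out of the fit. Ratios were tested with an exact permutation test over libraries. Named genes are the members, every gene of the chosen lists past the threshold, 4 other enzymes with the smallest p, and Bcat1, Dld, Slc25a44 and Klf15. Hsd17b10, Aldh6a1, Slc7a5, Slc43a1, Hlcs, Mmaa, Mmadhc, Ppargc1a, Pdk1, Pdk2, Pdk3, Dlat, Pdhx and Pdhb were added after their values were seen. An enzyme in the counts of other enzymes has its own values not reported here. The members and lists were chosen with earlier results of these data known. Alternatives changed pseudocount, filter, scaling, variance model, block and libraries, and mgcv 1.9.3 removed a length and GC trend. pandas 2.3.3 and the package data.table (version 1.17.8) read the files.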

Additional observations from a re-analysis of the deposited data

How the results depend on the processing

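All 10 members had a negative log2 fold change under each of 18 alternatives fitted to all of them, but the calls moved. The number called lower, 2 with the settings reported, was 4 after median centring, 3 after quantile normalization, 1 after rescaling to TPM, 1 after rescaling without mitochondrial and haemoglobin genes, 0 with no filter on low values, 4 with PBS replicate 3 added where listed (Bckdhb, Dbt, Ivd and Mccc1) and 7 at a threshold of 0.1. Leaving out 1 library gave 0 to 1. Of all tested genes, 2.17% were called lower with the settings reported, 2.99% after median centring and 2.88% after quantile normalization. That share was 1.28% in TPM, 1.3% without mitochondrial and haemoglobin genes, and 0.133% with no filter. With PBS replicate 3 added it was 3.75%, and at a threshold of 0.1 it was 5.37%. The members' median log2 fold change was -0.52 with a pseudocount of 0.1, -0.55 after median centring and -0.55 after quantile normalization. It was -0.43 in TPM and -0.53 without mitochondrial and haemoglobin genes. Over all genes 672 were called, 81 with no filter, 1171 with PBS replicate 3 added, and 24 to 398 with 1 library left out. Of these calls 62.6% were higher in STZ, against 48.5% after median centring, 50.2% after quantile normalization and 73.1% in TPM. Of the other breakdown enzymes 1 was called with a filter at 5 FPKM and 1 with PBS replicate 3 added, in place of 0. Aldh6a1 changed sign, from -0.09 to 0.015, with the replicate block and without STZ replicate 3 (-0.15 to 0.015 with 1 library left out). The cause of these moves was not tested. Other filters also changed the number of genes tested, and leaving out 1 library changed the number of libraries.

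The replicate numbers are shared by the groups, but the labels do not say that they pair libraries. Over 4811 genes in all 6 files, deviations from the group means correlated at 0.176, -0.05 and 0.15 for equal numbers, and PBS replicate 2 correlated best with STZ replicate 3. With the replicate block 0 members and 64 genes were called, and Mmab, Mmachc and Slc3a2 did not pass (limma adjusted p = 0.1, 0.0895 and 0.0644), while Pdk4 did (0.026). In the genes of all 6 files, a setting added after the data were seen, all 4 listed members passed without the block and 3 with it. Of all genes tested there, 7.9% were called lower without the block and 6.22% with it. PBS replicate 3 could not be added to the ratios or the summed FPKM, since its file does not list every gene they need.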
